A study of Mus musculus with 6 samples.

Results

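The members described here are the 16181 probes, of 55681 gene probes on the array (29.1%), whose name is a window of the mouse genome (chromosome, start and end) followed by F or R for the strand, and not a gene. They are called window probes below. They carried 4607 strand-specific names over 3540 windows on 20 chromosomes, 1067 windows being measured on both strands and 2473 on 1. A window spanned 62 to 7128487 bases, with a median of 7315.5, in coordinates of the mouse build mm9, and 1 to 10 probes of 60 bases (median 3) stood for a name. Of the window probes, 8171 were on the forward strand and 8010 on the reverse strand. Although the windows are described as intergenic, 715 of the 4607 names (15.5%) held a probe of a named gene inside the window, 445 of them (9.66%) on the same strand, so the probes are called here by how they are named and not as intergenic.

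RNA came from hearts of male C57BL/6 mice, 8 weeks old, taken 21 days after an infarct had been produced by tying off the left anterior descending artery. Mice had been injected through the tail vein with 80 mg/kg on 3 consecutive days, either of a miR-433 antagomir (3 arrays) or of a scrambled control oligonucleotide (3 arrays). An antagomir is a modified antisense oligonucleotide that binds a microRNA and blocks it, and the study asked whether blocking miR-433 prevents cardiac fibrosis. All hearts were infarcted, and no uninjured heart enters a comparison. It is not stated if the arrays come from different mice, nor which region of the heart was taken, so p-values measure only the spread between these samples.

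Long non-coding RNAs are transcripts without a protein product, many of them made from stretches between protein-coding genes, often spliced, and typically less abundant and more restricted to a tissue than messenger RNAs. In the heart, several take part in development, hypertrophy and fibrosis. Many windows of this kind were placed on arrays before their transcripts had been worked out, so that several probes along a window, on either strand, sample a transcript whose ends are unknown. The gene of miR-433 itself lies in the imprinted Dlk1-Dio3 interval of chromosome 12, whose maternally expressed strand yields the long non-coding RNAs Meg3, Rian and Mirg and a large number of microRNAs.

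The sequences on which the results turn are shown first, 5′ to 3′, with the longest run of A and G (purines) in capitals. These 3 window probes passed the adjusted threshold:
chr1:134867906-134885481_F: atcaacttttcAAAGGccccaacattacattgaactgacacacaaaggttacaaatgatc
chr6:40693617-40720167_R: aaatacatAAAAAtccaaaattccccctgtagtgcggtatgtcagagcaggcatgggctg
chrX:54627918-54638568_F: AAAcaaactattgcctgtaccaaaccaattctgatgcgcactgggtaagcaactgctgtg
The array design puts them at chr1:134885060-134885119, chr6:40697866-40697925 and chrX:54637646-54637705 of mm9, and none is rich in purines. This probe had the smallest p-value among those lower with the antagomir, and the design gives it no single position:
chr3:87757295-87774970_F: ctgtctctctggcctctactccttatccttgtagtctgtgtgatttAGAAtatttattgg
These 3 probes, all of 1 window, were lower together:
chr13:28551902-28975446_R: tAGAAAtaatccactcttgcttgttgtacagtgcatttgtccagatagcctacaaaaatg
chr13:28551902-28975446_R: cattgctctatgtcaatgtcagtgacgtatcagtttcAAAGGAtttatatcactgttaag
chr13:28551902-28975446_R: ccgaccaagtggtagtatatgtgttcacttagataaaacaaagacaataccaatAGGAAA
They lie at chr13:28551903-28551962, chr13:28551964-28552023 and chr13:28552091-28552150. The last 4 are the most purine-rich of the probes that were well above background on antagomir array 3 alone, 1 per window:
chr12:17350856-17355179_R: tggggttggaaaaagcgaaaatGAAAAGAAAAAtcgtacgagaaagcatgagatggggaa
chr10:66559716-66647841_F: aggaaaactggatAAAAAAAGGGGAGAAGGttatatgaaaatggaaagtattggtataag
chr3:41143423-41359623_R: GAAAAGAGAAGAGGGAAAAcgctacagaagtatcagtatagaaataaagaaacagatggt
chr7:3338500-3360725_F: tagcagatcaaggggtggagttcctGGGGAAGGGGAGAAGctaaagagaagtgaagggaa
They hold 47 or 48 purines among 60 bases, with runs of 11 to 19. The mature arms of miR-433 (RefSeq, GRCm38.p6), shown with the seed (bases 2 to 8) in capitals because the antagomir is directed at this microRNA, are:
mmu-miR-433-3p: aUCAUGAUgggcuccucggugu
mmu-miR-433-5p: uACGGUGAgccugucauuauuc
The labels do not say which arm the antagomir was made against.

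Most window probes gave little signal in these hearts. The scanner software flags a spot as well above background when its signal clearly exceeds the local background, and this flag was set for 40.2% of window probes on control array 1 (95% exact interval 39.4 to 40.9), 40.6% (39.8 to 41.3) on control array 2 and 39.3% (38.6 to 40.1) on control array 3. It was set for 36.5% (35.8 to 37.3) on antagomir array 1, 35.2% (34.4 to 35.9) on antagomir array 2 and 65.5% (64.8 to 66.3) on antagomir array 3. Intervals cover counting error only. The control arrays and antagomir arrays 1 and 2 thus lay close together, and antagomir array 3 stood apart. Probes of named genes had 69.8%, 70.0% and 69.2% on the control arrays and 67.1%, 68.8% and 79.1% on the antagomir arrays.

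Over the 6 arrays, 4364 window probes were well above background on none, 4490 on 1, 923 on 2, 1641 on 3 to 5 and 4763 (29.4%) on all 6. Of the 4490 on a single array, 3981 (88.7%) were on antagomir array 3. These 3981 had median scaled signals of 2.97, 2.905 and 3.13 on the control arrays, 3.65 and 3.48 on antagomir arrays 1 and 2 and 56.8 on antagomir array 3. A scaled signal is the processed intensity after each array was brought to a common 75th percentile of 404, and values near 3 are the floor of the scanner's processed signal. The 3981 probes held a median of 34 purines among 60 bases, against 28 for probes on all 6 arrays and 29 for probes on none, while G and C came to a median of 27, 27 and 24 bases in these groups.

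The excess on antagomir array 3 followed the purines of the probe. Among 2634 window probes with at least 36 purines, 90.2% were well above background on antagomir array 3 and 23.0% to 29.5% on the other 5 arrays. Among 2598 with at most 24 purines, the share was 52.0% on antagomir array 3 and 54.1% to 59.9% on the others. Purine-rich probes of named genes were at 91.5% on antagomir array 3 and 59.1% to 63.4% on the others, so this feature of the array was not limited to windows. It bears on every antagomir mean of a dim probe below, and its origin was not tested.

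**Figure D1:**
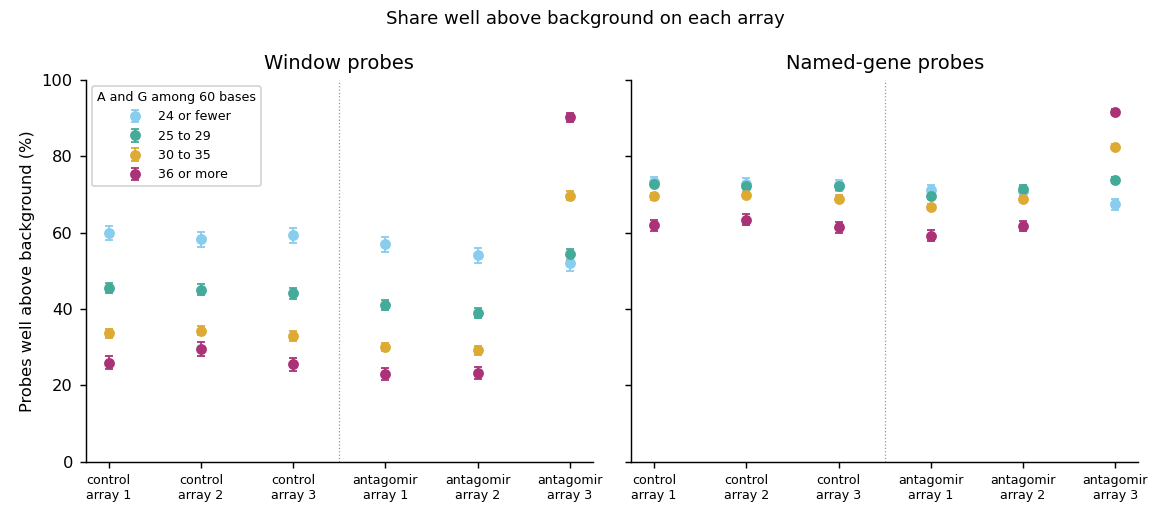
Share of probes well above background (%, y axis) on each of the 6 arrays (x axis), split by the number of A and G among the 60 bases, for window probes (left) and named-gene probes (right); bars are exact 95% intervals. Window probes with 36 or more purines sit at 90.2% on antagomir array 3 and between 23.0% and 29.5% on the other 5 arrays.

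Of the window probes, 6402 (39.6%) cleared background on 3 or more arrays, counted over both groups, and were compared between groups. They covered 2980 names and 2411 windows, and 9779 were not tested. Without counting antagomir array 3, 6044 would have reached 3 arrays. The filter lets in probes that must differ: 16 of those tested were above background on all 3 antagomir arrays and no control array, and 72 the other way round. The shares of such probes over the whole array are not given here, so these counts are not read as a trait of window probes.

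Across the tested window probes, differences between antagomir and control hearts were small and mostly within the spread between arrays. Fold changes are log2, antagomir minus control, on signals scaled to the 75th percentile, from limma fitted over all 31711 probes tested, with n = 3 per group. After Benjamini-Hochberg adjustment over all of these, 3 window probes passed at 0.05 (0.0469%), all higher with the antagomir, where 6 of all probes tested did (0.0189%). These 3 are among the 16 that entered through the antagomir arrays alone, so their p-values rest on control values at the floor, and with all 6 arrays required to be above background 0 passed. At an unadjusted p under 0.05 in the limma fit, 277 window probes were higher (4.33%), where 2.9% of all probes tested were, and 143 were lower (2.23%), where 3.66% of all were. In 545 window probes (8.51%) every antagomir value lay above every control value, where the share over all probes was 8.71%, and in 242 (3.78%) every antagomir value lay below, where it was 6.34%. The shares without overlap were near or below the background. The share of higher probes at an unadjusted p was above it, but not with median scaling (0.61% against 0.66% of all probes), normexp (2.00% against 2.19%) or trend and robust moderation (2.97% against 3.13%), nor within the dimmest of 3 equal classes of probes by brightness (5.12% against 5.26%), where most window probes lay. In the brightest class it was also not above (0.58% against 0.63%). It stayed above in the middle class (3.74% against 2.82%) and for probes with at most 24 purines (5.07% against 3.33%). The same held for probes above background on all 6 arrays (4.28% against 2.62%). Also above were the shares with quantile scaling (2.17% against 1.66%), the authors' deposited values (2.16% against 1.65%) and 1 probe per name (5.37% against 3.06%). So were those with array weights (5.42% against 3.93%) and without purine-rich probes (4.57% against 3.04%). With each array left out in turn it stayed above, for example 1.95% against 1.36% without control array 2.

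The median log2 fold change of the tested window probes was 0.15, with 65.9% above 0, and over all probes tested it was 0.10, with 62.9% above 0. Both medians depend on how arrays were brought to a common scale. With quantile scaling they were −0.13 and −0.04, and scaling by the array median shifts every probe down by the same 0.47 and gave −0.32 and −0.38, so that any fold change between 0 and 0.47 falls below 0 with it by construction. The split of window probes at an unadjusted p under 0.05 by limma changed from 277 higher and 143 lower to 139 and 362 with quantile scaling, 39 and 251 with median scaling, 128 and 295 with normexp background correction, and 138 and 362 with the authors' deposited normalised values. Over all probes the shares higher and lower were 1.66% and 5.13% with quantile scaling, where window probes had 2.17% and 5.65%, and 0.66% and 4.59% with median scaling, where they had 0.61% and 3.92%. Much of the change in the split was thus shared by the whole array. A direction for the window probes as a class was therefore not settled by these arrays.

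Of the 6 arrays, leaving out antagomir array 3 moved the median most. Set against the mean of the controls, the median over tested window probes was 0.09 on antagomir array 1, −0.17 on antagomir array 2 and 0.50 on antagomir array 3, and 0.03, −0.05 and 0.04 for the controls. Without antagomir array 3 the median log2 fold change was −0.05 and the split by limma at an unadjusted p under 0.05 was 177 higher and 502 lower (2.76% and 7.84%, against 1.94% and 5.08% of all probes). Without antagomir array 2, the array with the lowest values, it was 617 and 108 (9.64% and 1.69%, against 5.54% and 4.70%). Leaving out control array 1 gave 141 higher (2.20%, against 1.60% of all probes). Leaving out control array 2 gave 125 higher and 74 lower (1.95% and 1.16%, against 1.36% and 2.08%). With 2 arrays in a group fewer values have to separate. Without control array 3, 1019 window probes were higher and 419 lower without overlap (15.92% and 6.54%, against 18.51% and 9.35% of all probes). Without antagomir array 1 it was 863 and 410 (13.48% and 6.40%, against 13.67% and 10.03%). Without antagomir array 2, 1876 were higher (29.30%, against 23.67%) and 351 lower (5.48%, against 13.12%). Without antagomir array 3, 690 were higher (10.78%, against 16.18%) and 1196 lower (18.68%, against 14.02%). Of these shares without overlap, the higher one without antagomir array 2 and the lower one without antagomir array 3 were above those of all probes. The others were below.

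The median fold change went with the purines of the probe among window probes. It was 0.12 for 1499 tested probes with at most 24 purines, 0.13 for 2146 with 25 to 29, 0.17 for 2041 with 30 to 35 and 0.27 for 716 with at least 36. Without antagomir array 3 these medians were 0.05, −0.04, −0.12 and −0.17 in the same order, so the direction turned in all but the purine-poor probes. For named-gene probes the range was narrower, 0.04 to 0.12 with all arrays and 0.04 to 0.07 without antagomir array 3. Of the tested window probes, 3909 lay in the dimmest of 3 equal classes of all probes tested, 1979 in the middle class and 514 in the brightest, with median fold changes of 0.22, 0.08 and 0.11. The brightest class kept a median of 0.13 without antagomir array 3, where the dimmest class went to −0.12.

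**Figure D2:**
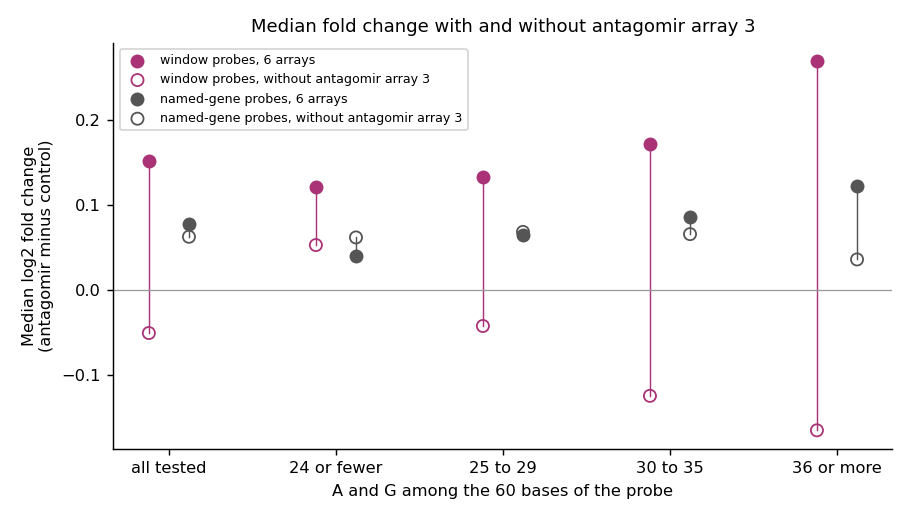
Median log2 fold change, antagomir minus control (y axis), of all tested probes and by number of purines (x axis), for window probes and named-gene probes, with all 6 arrays (filled) and without antagomir array 3 (open). For window probes with 36 or more purines the median is 0.27 with all arrays and −0.17 without that array.

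The 3 window probes that passed shared a pattern: floor signals on the control arrays and low signals on each antagomir array. The probe of chr1:134867906-134885481_F had scaled signals of 2.94, 2.76 and 3.32 in the controls and 34.9, 50.3 and 40.4 with the antagomir, here and below in the order of arrays 1 to 3 of each group. The antagomir values lay above all control values, and since no control array was above background the difference is given only as a bound, at least 3.02-fold (limma adjusted p = 0.0143). A bound of this kind sets the antagomir mean against the control mean after raising each control value to the lowest signal that was called well above background on its array. The nearest tested probe of a named gene was Mdm4, a regulator of p53, 0.945 kb from the window on the opposite strand, with a fold change of −0.28.

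The probe of chr6:40693617-40720167_R had signals of 3.02, 2.73 and 2.91 in the controls and 52.7, 41.2 and 80.1 with the antagomir, with the largest bound of the 3, at least 4.07-fold (limma adjusted p = 0.0268). On chrX:54627918-54638568_F the signals were 2.63, 2.74 and 2.96 in the controls and 23.6, 29.5 and 38.6 with the antagomir, at least 2.18-fold (limma adjusted p = 0.0268). Here the closest gene probe was Rbmx, an RNA-binding protein, 0.986 kb away on the opposite strand, with a fold change of 0.12. All antagomir values of the 3 probes lay between 23.6 and 80.1, close to the lowest signals called well above background (17.3, 16.5 and 31.2 on antagomir arrays 1 to 3).

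The tested other probes of these windows showed no such pattern. On chromosome 1, 3 of the 8 other probes were tested, with fold changes of −0.60 to −0.41. On chromosome X all 4 other probes were tested and gave −0.34 to 0.12, with control signals from 54.9 to 1407. On chromosome 6, none of the 4 others reached 3 arrays. With fewer arrays calls were lost: by limma 0 window probes passed when control array 1, 2 or 3 or antagomir array 1 was left out, 2 passed without antagomir array 2 and 1 without antagomir array 3. The fitted differences of the 3 stayed about as large in these 6 fits, at 3.65 to 3.91 on chromosome 1, 4.01 to 4.49 on chromosome 6 and 3.25 to 3.61 on chromosome X. With median scaling 18 window probes passed (0.281%), these 3 among them, where 0.782% of all probes did. None passed with quantile scaling, with normexp correction or with the authors' deposited values, and over these settings the lowest adjusted p of the 3 probes was 0.149, for the chromosome 6 probe with quantile scaling. Here the fitted differences were smaller. On chromosomes 1, 6 and X they were 2.61, 3.64 and 2.51 with quantile scaling and 0.42, 0.68 and 0.33 with normexp. Their size thus depended on how floor values were treated.

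Beyond these, the 5 higher window probes with the smallest p-values, among those at least 1.5-fold and without overlap, did not pass. The probe of chr18:35985999-35986376_R had signals of 10.4, 9.66 and 13.4 in the controls and 45.8, 65.5 and 52.2 with the antagomir. The difference was at least 3.93-fold (limma adjusted p = 0.123), while the other tested probe of that window was at 0.05. In chr3:131128972-131163308_F the values were 8.52, 4.59 and 3.14 in the controls and 59.1, 38 and 37 with the antagomir (at least 3.18-fold), with 2 other tested probes at 0.67 and 0.93. In chr11:116936834-116948799_R, above background on every array, they were 19.5, 22.4 and 18.2 in the controls and 47.9, 73.9 and 57.8 with the antagomir (1.56, SE 0.21), and 4 other probes ranged from 0.29 to 0.95. Of the 5, this probe alone was well above background on every array. For chr8:71891610-71924216_F, with 4.47, 10.2 and 6.92 in the controls and 35.4, 79.2 and 41.1 with the antagomir, the difference was at least 3.54-fold. In chr14:73729977-73751877_F the values were 6.16, 14.6 and 8.32 in the controls and 38.3, 39.7 and 38.5 with the antagomir, where only control array 2 of the controls was above background, and 1 other tested probe was at 1.24. Limma adjusted p-values of these last 4 ran from 0.364 to 0.529.

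Among the 8 lower window probes chosen in the same way, none passed the adjusted threshold. The difference was largest for chr3:87757295-87774970_F, with signals of 574, 348 and 546 in the controls and 120.2, 95 and 91.5 with the antagomir. The groups were far apart, above background on every array, with a log2 fold change of −2.23 (SE 0.25), a 4.71-fold difference (limma adjusted p = 0.194). Crabp2, which encodes a cellular retinoic acid binding protein, had a probe 0.029 kb beyond the window on the same strand with a fold change of −2.18. The 4 other probes of the window, on the other hand, lay between −0.56 and 0.09, so the difference was seen in 1 of 5 probes.

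Of the 8, 2 were probes of chr13:28551902-28975446_R. For the first the signals were 52.6, 50.2 and 53.8 in the controls and 22.2, 23 and 28 with the antagomir (−1.10, SE 0.15), and for the second 36.3, 50.9 and 36.9 in the controls and 16.9, 11.7 and 21.3 with the antagomir (at least 1.97-fold). The third probe, with 82.2, 67.7 and 87.9 in the controls and 37.9, 25 and 48.2 with the antagomir, had −1.14 (SE 0.27). All 3 lie close together at the start of a 423545-base window, and in each the groups did not overlap. The closest tested gene probe was Sox4, a transcription factor, 65.38 kb away on the same strand, at −0.44 (limma unadjusted p = 0.263).

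The remaining lower probes were dim. In chr8:49862898-49863497_R the values were 65.3, 67.3 and 59.5 in the controls and 31.9, 23.5 and 20.7 with the antagomir (−1.36, SE 0.20), and the other probe of this 600-base window was at −0.82. In chr4:126710640-126721240_R no antagomir array was above background (at least 1.26-fold). The probes of chr19:61226425-61270975_R and chr12:20620869-21028045_F (−1.13, SE 0.23) had control signals of 15.6 to 46.4, and for the former no antagomir array was above background and no fold can be given. That of chr12:110944403-110988678_F (−1.18, SE 0.24) lies in the imprinted interval described below. Limma adjusted p-values of the 7 ran from 0.429 to 0.642.

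**Figure D3:**
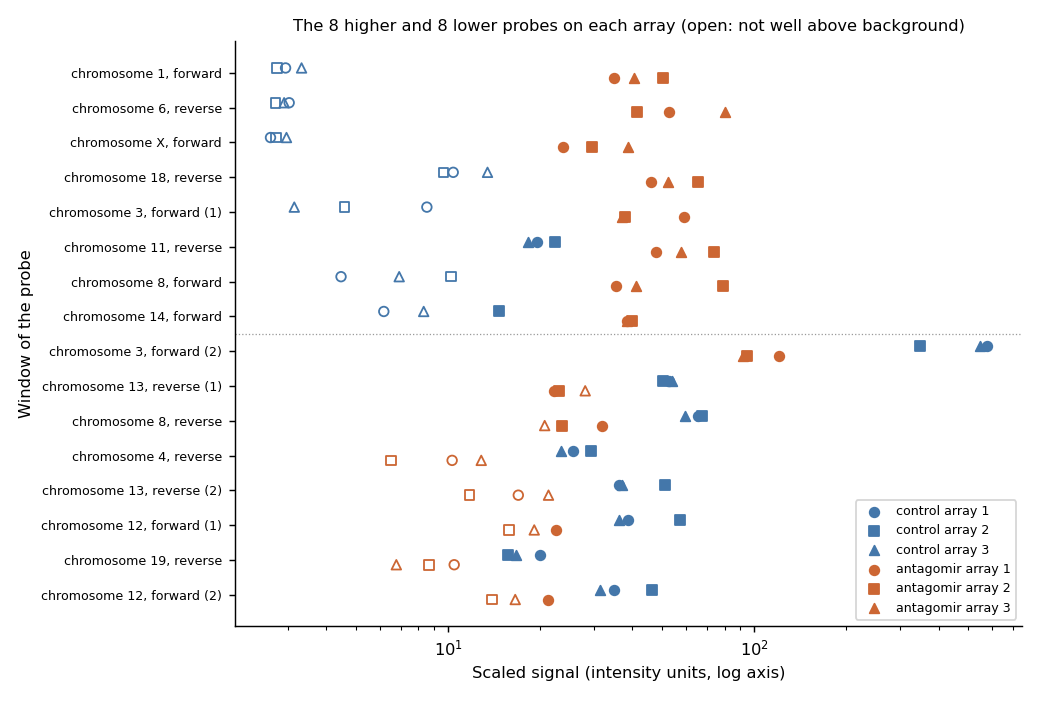
Scaled signal (log axis) on each array of the 8 higher (top) and 8 lower (bottom) window probes with the smallest p-values, control arrays in blue and antagomir arrays in orange; open symbols were not well above background. In the upper 3 rows all control values lie near 3 and the antagomir values between 23.6 and 80.1.

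**Figure D4:**
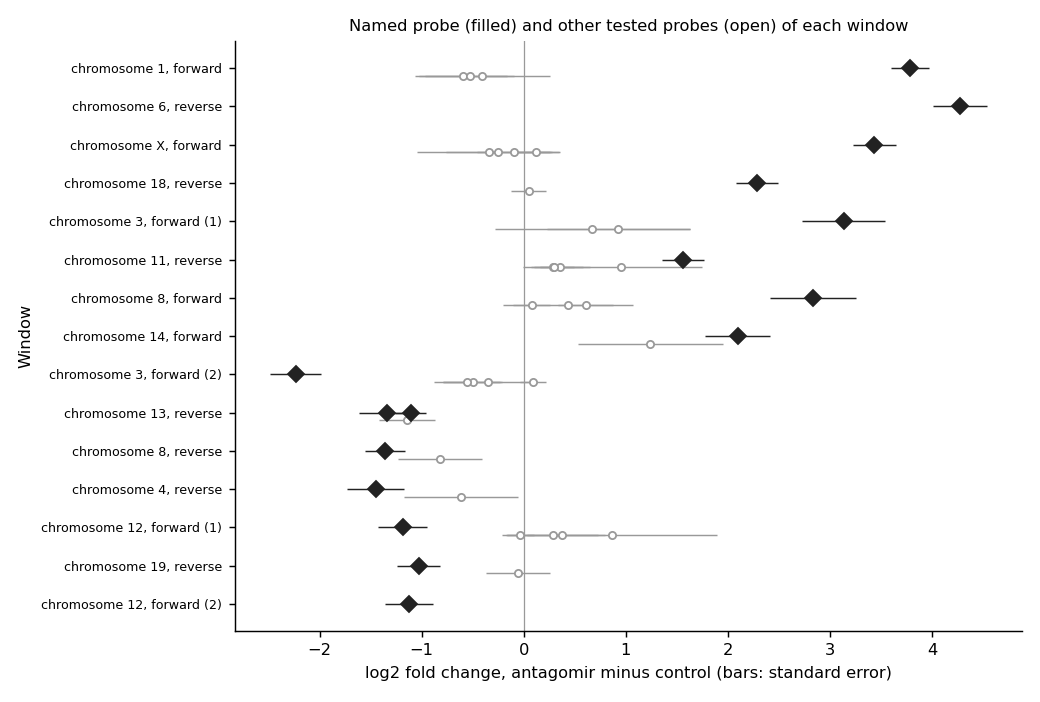
log2 fold change (x axis, bars: standard error) of the same probes (filled) and of every other tested probe (open) of each window (y axis). On chromosomes 1 and X the other probes lie between −0.60 and 0.12, while in the chromosome 13 window the fitted values of all 3 tested probes lie between −1.34 and −1.10.

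Probes well above background on every array of 1 group and none of the other numbered 72 for the control and 16 for the antagomir, with no share over all probes to set beside them. The lowest scaled signals called well above background were 13.1, 13.3 and 14.8 on the control arrays and 17.3, 16.5 and 31.2 on the antagomir arrays. What part this had in the counts was not tested. Those picked by the naming rule and not given above follow. The probe of chr9:27148989-27155714_F had signals of 12.9, 8.87 and 12.2 in the controls and 25.2, 23.9 and 204 with the antagomir, at least 3.62-fold higher in the antagomir mean, which rested mainly on antagomir array 3. In chr18:63525907-63526504_R, a 598-base window, the first probe had 39.8, 142 and 89 in the controls and 9.32, 13.9 and 20.8 with the antagomir (at least 3.85-fold lower with the antagomir), and another had 16.8, 85.2 and 48.3 in the controls and 3.81, 7.13 and 17.6 with the antagomir (at least 1.99-fold lower), where the groups overlapped. The remaining probe of that window was at −1.52, and control array 2 was highest in both probes given. In chr12:5303823-5379098_R the signals were 34.2, 129 and 28.1 in the controls and 11.1, 5.61 and 18.6 with the antagomir (at least 2.41-fold lower), again highest on control array 2, and its 2 other tested probes were at −1.25 and −1.17.

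Probes of 1 name gave a check on single-probe differences. Of 1627 names with at least 2 tested probes, the median SD of fold changes within a name was 0.23, where the SD over all these probes was 0.48. Where a window probe had the same 60 bases as another gene probe, 43 pairs were tested in both forms, and the fold changes had a Pearson r of 0.93 across pairs, with a median absolute difference of 0.08. Of 948 names with at least 3 tested probes, 6 had all of them higher without overlap and 7 all lower. No matching share for named genes is given here, so the counts are not read as a trait of windows. These 13 were picked after their values were seen, and probes of a name share arrays and often a transcript, so that they do not count as repeats.

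Among the 7 lower ones were overlapping windows in 2 places. In chr10:83181374-83249774_F all 5 probes were tested, with median signals of 667, 1399.7 and 548 in the controls and 244, 474 and 355 with the antagomir and fold changes of −1.34 to −1.01. All antagomir values lay below the controls, and control array 2 stood well above the other controls. The 3 probes of chr10:83185606-83225506_F, a window inside it, had −1.15 to −1.11. Both hold a probe of 1500009L16Rik on the same strand, at −0.77 (limma unadjusted p = 0.142). Without control array 2 the medians of these windows were −0.81 and −0.75, and, fitted with slide row as blocking term, which leaves control array 3 against the antagomir arrays, −0.64 and −0.67.

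In chr15:32167516-32174427_R all 5 probes were tested, with median signals of 1177, 2235 and 1239 in the controls and 782, 1050.2 and 754 with the antagomir and fold changes of −0.84 to −0.71. In chr15:32167516-32174417_R, which has the same start and nearly the same end, 4 tested probes gave −0.80 to −0.69. The window holds Snord123, a small nucleolar RNA gene, whose probe on the same strand was at −0.80 (limma unadjusted p = 0.0431). Here too control array 2 was highest, and the medians without it were −0.50 and −0.49. The remaining 3 lower names were the chromosome 13 window above, chr1:137503023-137625604_R with 142, 194 and 131 in the controls and 89.9, 83.9 and 117 with the antagomir (−0.86 to −0.51) and chr1:82895400-82897576_F with 574, 698 and 586 in the controls and 562, 458 and 470.3 with the antagomir (−0.34 to −0.29).

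The 6 higher names had smaller differences in most probes. In chr5:35975265-35982561_F the median signals were 167, 146 and 254 in the controls and 351, 304 and 316 with the antagomir, and the 4 probes, which lie close together, had fold changes of 0.71 to 2.21, the largest from a dim probe with 43 purines. It kept a median of 0.34 with median scaling and of 0.35 with slide row as blocking term. In chr8:27912000-27992750_F, whose 5 probes were bright, the median signals were 3134, 2380 and 3248 in the controls and 4281, 3312 and 3547 with the antagomir and the fold changes 0.32 to 0.40. The windows chr12:4234392-4236672_F (0.33 to 0.51) and chr12:45418006-45418737_F (0.16 to 0.37) were similar, and all 3 have medians under the 0.47 by which median scaling moves every probe. In chr4:119967625-119978325_F (0.17 to 1.44) and chr4:141100989-141106639_R (0.40 to 1.62) the largest value came from probes with signals of 302 and 138 on antagomir array 3 and at most 29.99 on every other array.

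In most windows measured on both strands, each strand had a tested probe. Of the 1067 windows measured on both strands, 569 (53.3%) had a tested probe on each strand, 181 on the forward strand alone, 197 on the reverse strand alone and 120 on neither. In 418 windows both strands were above background on all 6 arrays. Across the 569 windows the fold changes of the strands had a Pearson r of 0.02 and a Spearman rho of 0.09. The windows whose weaker strand was brightest were chr12:73838608-73862621, chr17:39960567-39992817, chr14:33923944-34003394 and chr7:108209996-108216032. In chr12:73838608-73862621 the brightest forward probe had 28618, 26525 and 31101 in the controls and 30546, 29376 and 30043 with the antagomir, and the brightest reverse probe 64986, 57154 and 68029 in the controls and 76794, 63748 and 69070.4 with the antagomir. The groups overlapped in both, with fold changes of 0.06 (SE 0.14) and 0.14 (SE 0.15), while 2 other tested forward probes were at 0.55 and 0.87, 1 of them without overlap. In chr17:39960567-39992817 the fold changes were −0.24 (SE 0.22) on the forward strand and −0.52 (SE 0.42) on the reverse strand, where antagomir array 2 was lowest. They were 0.17 (SE 0.19) and −0.10 (SE 0.25) in chr14:33923944-34003394, and 0.17 (SE 0.15) and 0.09 (SE 0.13) in chr7:108209996-108216032.

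Of the 6 brightest window probes, none passed the adjusted threshold by limma. The probe of chr2:168804720-168854970_R had 201694, 151043 and 208527 in the controls and 251651, 224962 and 240358 with the antagomir (0.37, SE 0.18), and a probe of chr17:17481706-17482457_R had 136356, 97313 and 140795 in the controls and 169516, 151449 and 147301 with the antagomir (0.34, SE 0.19). A second probe of the latter window was at 0.30 (SE 0.20), and the single probe of chr4:33364774-33364898_R, a 125-base window, at 0.34 (SE 0.19). In these 4 probes the groups did not overlap, and the differences were 1.23- to 1.29-fold. In chr19:5801802-5802597_R the signals were 114882, 134857 and 105720 in the controls and 111664, 97216 and 116626 with the antagomir (−0.12, SE 0.16). The nearest gene probe on the same strand, 6.03 kb away, was Malat1, an abundant nuclear long non-coding RNA, with a fold change of −0.37 (limma unadjusted p = 0.1003). The sixth, in chr14:78924115-78938125_F, was at 0.11 (SE 0.14), and in these last 2 the groups overlapped.

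Fold changes of window probes were only weakly related to those of the genes beside them. Of the 6402 tested, 5562, of 2513 names, had a tested named-gene probe within 100 kb, and across names the fold changes of window and gene had a Pearson r of 0.13 and a Spearman rho of 0.15. The description is across names that share the arrays. Where the gene probe lay inside the window on the same strand (238 names) the values were 0.23 and 0.32, and on the opposite strand (161 names) 0.18 and 0.22. Outside the window (2114 names) they were 0.12 and 0.13. The gene with the smallest p-value among neighbours that were higher was Clec4f, a C-type lectin, at 2.18 (limma unadjusted p = 0.000152). Of the 5 tested probes of the window beside it, chr6:83541250-83560425_F, the 4 named by the rule were at 0.04, −0.07, −0.09 and −0.12. Among lower neighbours it was C430002N11Rik, at −2.44. The 3 tested probes of the window that holds it, chr9:96664617-96683617_F, were at 0.17, −0.56 and 0.51, and 2 of chr9:96632664-96653249_R, 21.505 kb away on the opposite strand, at −0.43 and −0.40.

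Between Dlk1 and Dio3, the interval that holds the miR-433 gene, 101 window probes were placed and 32 were tested. Of these 17 were higher and 15 lower, with a median of 0.24, and 2 higher and 3 lower had an unadjusted p under 0.05 by limma (2.9% and 3.66% over all probes tested), while 0 passed after adjustment. On the forward strand, that of Meg3 and Mirg, 20 were tested, 10 higher and 10 lower, with a median of 0.07, and on the reverse strand 12, 7 higher and 5 lower, with a median of 0.48. Without antagomir array 3 the medians were −0.35 and 0.10. The probe of chr12:110944403-110988678_F named above, inside Mirg on the same strand, had 38.7, 57.3 and 36 in the controls and 22.5, 15.8 and 19.1 with the antagomir, all lower with the antagomir. The other 4 tested probes of that name lay between −0.03 and 0.87, and the brightest of them had 477, 467 and 483 in the controls and 478, 495 and 422 with the antagomir. In chr12:110894095-110899517_F the signals were 48.7, 98.5 and 37.7 in the controls and 21.8, 15.7 and 38.8 with the antagomir (−1.25, SE 0.47), where the groups overlapped. On the reverse strand, chr12:111079867-111080561_R had 22, 23.3 and 16.8 in the controls and 30.6, 33.4 and 36.1 with the antagomir (0.70, SE 0.18) and was higher on every antagomir array. A Meg3 probe of the same interval had 2296, 5391 and 1832 in the controls and 993, 1134 and 1022 with the antagomir, that is −1.43 on the log2 scale (SE 0.41, limma adjusted p = 0.699), with control array 2 far above the others. The other Meg3 probes were at −1.24 and −0.23 and the Mirg probes at −0.95 and −0.77, so all 5 were below 0, and without antagomir array 3 they lay between −1.47 and −1.08. The window probes of the same strand were split between both directions.

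**Figure D5:**
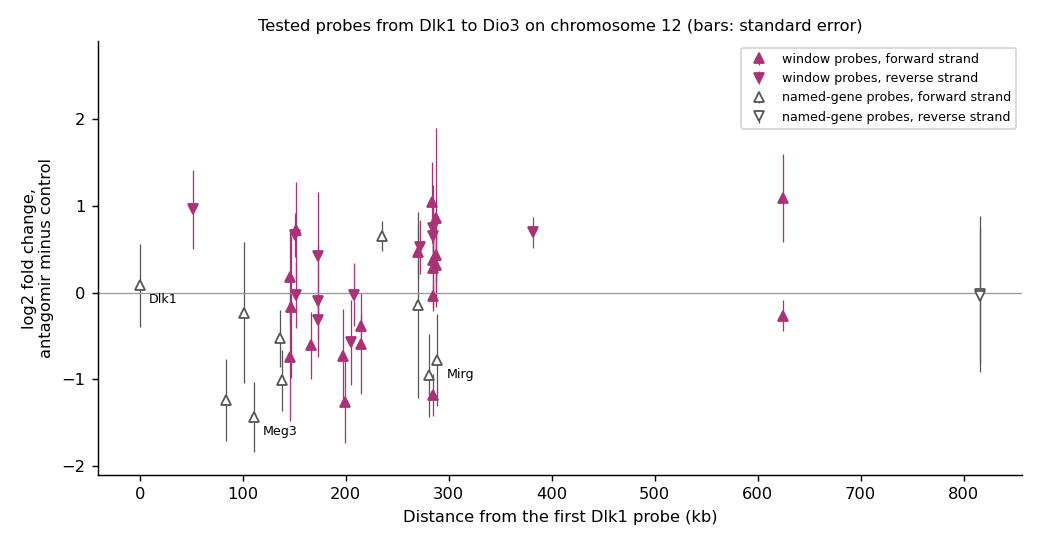
log2 fold change (y axis, bars: standard error) of the tested probes between Dlk1 and Dio3 on chromosome 12 against distance from the first Dlk1 probe (kb, x axis), window probes filled and named-gene probes open, with triangles pointing up for the forward and down for the reverse strand. Window probes scatter on both sides of 0, 17 above and 15 below.

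The letters ATCATGA, complementary to the seed of miR-433-3p, stood in 85 window probes (0.525%) and in 0.511% of all other gene probes of the same length, and TCATGAT, the same letters read from the other strand, in 77 (0.476%) and 0.476%. Of the 26 tested probes with ATCATGA, 15 were higher and 11 lower, and 0 had an unadjusted p under 0.05 by limma. Their median fold change was 0.10, or −0.14 without antagomir array 3. The 26 tested probes with TCATGAT were also 15 higher and 11 lower, with a median of 0.10, or −0.07 without that array. The complement of the seed of miR-433-5p, TCACCGT, stood in 19 window probes (0.117%) and 0.0937% of others, 9 of them tested with a median of 0.42, or −0.05 without antagomir array 3. The 60 bases of a probe are a small part of a window, and transcripts outside them were not searched.

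Of a list of 57 names taken for comparison, most of them long non-coding RNAs, 42 were on the array and 30 were tested. Of these 30, 8 were higher and 22 lower (median −0.22, or −0.29 without antagomir array 3), and 0 passed over all probes by limma. At an unadjusted p under 0.05 by limma, 1 was higher and 3 lower (2.9% and 3.66% over all probes tested). Without overlap between groups, 1 was higher and 8 lower (8.71% and 6.34% over all probes tested). Among markers of the cells of the heart, the median fold change was 0.19 for 7 cardiomyocyte markers (7 higher) and −2.17 for 7 fibroblast markers (7 lower, 4 without overlap), whose mean level was 4.91 to 5.64 on the control and 3.00 to 3.87 on the antagomir arrays (log2 relative to the 75th percentile). Endothelial markers had a median of −0.12 (4 of 5 lower), macrophage markers −0.23 (5 of 6 lower) and smooth muscle markers −0.57 (5 of 6 lower). The medians were 0.44 for 4 lymphocyte, −0.10 for 2 skeletal muscle, 0.57 for 2 erythroid and −0.01 for 3 epicardial markers, and 0 markers of any list passed by limma after adjustment. Without antagomir array 3 the medians turned to 0.10 for macrophage and 0.32 for epicardial markers, while the other marker lists kept their direction. The 4 atrial markers had a median of 4.12 (3 of 4 higher; 2.70 without antagomir array 3), the largest of these lists, with mean levels of 0.28 to 3.24 on the control and 0.65 to 7.15 on the antagomir arrays. In tissue RNA, fewer cells of a type and less RNA per cell cannot be told apart, and what part these shifts had in the window probes was not tested.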

How the data were processed

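Heart RNA of 6 samples, 3 per group, was labelled with Cy3 and hybridised to 1-colour Agilent arrays (design on mouse build mm9), all on 1 slide. Images were read by the authors with Agilent Feature Extraction, per the file headers. Intensity was taken from the processed signals that the authors deposited, already background-subtracted, and spot flags (well above background, outlier) were used as other values, 0 or 1, per the file headers. The authors' deposited table also holds log2 normalised values, used as an alternative; its sorted columns differ by at most 0.00143, and how they were made is not given in the sources used here.

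Outlier and control spots were dropped and spots of a probe averaged. Values were log2 of the signal minus each array's 75th percentile (359 to 456). Probes that cleared background on 3 or more of 6 arrays were fitted with limma 3.58.1 (lmFit, eBayes; R 4.3.3) with Benjamini-Hochberg adjustment; the fit was tested on simulated data. Summaries used Python 3.11.15. No gene spot was saturated, and 55.2% to 73.6% of gene spots were well above background; the number of arrays limits the precision. An exact permutation test of 3 against 3 cannot go below 0.1.

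After the mean of its group was taken from each value, the deviations of same-numbered samples correlated at 0.22, 0.12 and −0.09, so numbers were not taken as pairs. Slide row 1 holds control arrays 1 and 2 and row 2 the other 4 arrays. Alternatives were scaling, background correction, filters, moderation, weights, blocks and leaving out each array. Named probes were the 8 per direction with the smallest p among those without overlap and at least 1.5-fold, the 6 brightest, up to 4 per direction above background in 1 group alone, 4 windows with both strands bright, and those beside the neighbours, within 100 kb, with the smallest p (4 per direction). Members, lists and rules were chosen with earlier results of these data known, and windows with all of 3 or more probes separate, and probes between Dlk1 and Dio3, after their values were seen.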

Additional observations from a re-analysis of the deposited data

How the results depend on the processing

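The dim signals of most window probes, 3 arrays a group and antagomir array 3 limit what can be read. The median log2 fold change of tested window probes reversed with quantile scaling (−0.13), median scaling (−0.32), normexp (−0.041), the authors' deposited values (−0.13) and without antagomir array 3 (−0.051), and was 0.58 with no filter; the cause was not tested. The share higher was 39.2%, 20.6%, 42.0%, 39.2% and 82.3% with quantile, median, normexp, deposited values and no filter, 64.3% with 3 arrays of a group required, 64.7% without purine-rich probes, 69.0% with 1 probe per name, 60.6% with array weights and 60.5% with the slide row block. Past the adjusted p by limma were 18 with median scaling, 1 with 1 probe per name, and 0 with quantile scaling, normexp, deposited values, no filter, 6 arrays required, 3 of the other 5 required, trend and robust moderation or the slide row block. Window probes higher and lower at an unadjusted p numbered 139 and 362 with quantile scaling, 39 and 251 with median scaling, 128 and 295 with normexp, 138 and 362 with deposited values, 160 and 59 with 1 probe per name and 59 and 38 with the slide row block, and 540 were higher with no filter. Without overlap, 334 were higher and 688 lower with quantile scaling, 117 and 838 with median scaling and 329 and 682 with normexp. There were 333 and 689 with deposited values (5.20% and 10.76%, against 6.60% and 10.51% of all probes). With 1 probe per name there were 299 and 113 (10.03% and 3.79%, against 8.79% and 6.94%), and 4891 were higher with no filter. Over all probes the shares higher and lower without overlap were 6.65% and 10.47% with quantile scaling, where window probes had 5.22% and 10.75%. With median scaling they were 0.94% and 10.58%, against 1.83% and 13.09% of window probes. With normexp they were 6.48% and 10.36%, against 5.14% and 10.65%. With no filter 24.53% of all probes were higher, against 30.24%. Much of the change in these counts was thus shared by the whole array. With 1 array left out in turn, 0 to 2 passed, and 125 to 617 were higher and 74 to 502 lower at an unadjusted p by limma. These were 1.95% to 9.64% and 1.16% to 7.84%, against 1.36% to 5.54% and 2.08% to 5.08% of all probes. Without overlap 647 to 1876 were higher and 312 to 1196 lower. These were 10.11% to 29.30% and 4.87% to 18.68%, against 10.32% to 23.67% and 7.34% to 14.02%. The median was −0.051 to 0.31 and the share higher 45.1% to 76.6%. With the replicate block, 0 passed and 453 were higher at an unadjusted p by limma (7.08%, against 4.84% of all probes). The replicate numbers did not pair the samples. The share detected by the positive-and-significant flag was 67.0%, 67.7% and 64.1% on control and 61.4%, 61.6% and 90.3% on antagomir arrays 1 to 3. By the well-above-background flag, dropping purine-rich probes left shares of 42.9%, 42.7% and 42.0% for controls 1 to 3. For antagomir arrays 1 to 3 these shares came to 39.1%, 37.5% and 60.7%. Over the same alternatives, 865 values of 46 named probes gave 764 on the same side, 36 that lost a call, 6 that gained one and 0 reversed calls, the others having moved. Many of these probes were picked for groups without overlap, so leaving out an array cannot turn their sign. Filters, moderation and the replicate block leave a fold change as it was. The agreement was thus largely fixed in advance and is not read as stability.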
